A study of Mus musculus with 6 samples.

Results

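Rest, a transcriptional repressor, and genes of neurotrophin signalling were followed in H3K4me3 ChIP-Seq peak lists of STHdh cells. The 8 genes were Rest, the secreted ligands Bdnf, Ntf3 and Gdnf, and the receptors Ntrk2, Ntrk3, Ngfr and Sort1, out of 21924 protein-coding genes of the GENCODE vM21 annotation. They were taken from a fixed list of names. A gene counted as marked in a list if any of its annotated transcript starts had a peak no more than 1 kb away. The 8 genes had 51 annotated transcripts with 47 different starts, and 46 peaks from 6 lists lay within 1 kb of a start.

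STHdh cells are immortalised striatal progenitor cells from mice, here with a strain label of C57BL/6. There was 1 peak list for each of 6 conditions, all held for 24 hours in medium without serum. Q7SST was the wild-type line (STHdh7 in the labels) with vehicle, and Q111SST was the mutant line (STHdhQ111), which expresses huntingtin with an expanded polyglutamine tract, with vehicle. The other 4 lists came from the mutant line given cyproheptadine, loxapine, diacylglycerol kinase inhibitor II (DKI) or meclizine, each at 10 uM. The wild-type and mutant states were each carried by 1 cell line, so genotype and line cannot be told apart.

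H3K4me3, trimethylation of lysine 4 of histone H3, marks promoters that are active or poised for transcription. Rest (also called NRSF) binds a DNA element named RE1 near many neuronal genes and recruits corepressors, and it is known for keeping neuronal genes silent outside neurons. Bdnf is a classical example of a gene under its influence, and wild-type huntingtin is known to keep part of the Rest protein in the cytoplasm. Bdnf and Ntf3 signal through the receptor tyrosine kinases encoded by Ntrk2 (TrkB) and Ntrk3 (TrkC). Ngfr (p75NTR) binds all neurotrophins, and Sort1 (sortilin) binds their precursors and sorts them within the cell. Gdnf belongs to a separate ligand family that supports dopaminergic and motor neurons. Striatal neurons depend on Bdnf delivered from the cortex, which is why these genes are studied in Huntington's Disease.

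The promoters below show the letters under the results. They are RefSeq windows on GRCm38.p6, from 250 bases before to 50 after a start, on the transcribed strand, with each CpG dinucleotide in capitals, since CpG-rich promoters commonly carry this mark. RefSeq windows were found for 5 of the 8 genes: Bdnf, Ntf3, Gdnf, Ntrk2 and Ngfr. Rest, Ntrk3 and Sort1 had no entry.

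The Bdnf windows shown cover starts that differed in their peaks. Window 1 (chr2:109674450-109674749, + strand) belongs to the most upstream start and was touched by a peak only in Q7SST. Window 3 (chr2:109692186-109692485, + strand) was touched in Q111SST, DKI and meclizine. Window 5 (chr2:109694159-109694458, + strand) was touched in all 6 lists, and window 6 (chr2:109709133-109709432, + strand) in none.
Bdnf window 1: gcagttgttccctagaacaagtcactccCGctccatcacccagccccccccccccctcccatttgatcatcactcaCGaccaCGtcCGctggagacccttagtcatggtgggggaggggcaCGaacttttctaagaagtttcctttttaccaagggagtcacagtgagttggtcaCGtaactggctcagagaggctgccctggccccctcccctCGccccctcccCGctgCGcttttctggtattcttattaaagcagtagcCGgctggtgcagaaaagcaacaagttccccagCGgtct
Bdnf window 3: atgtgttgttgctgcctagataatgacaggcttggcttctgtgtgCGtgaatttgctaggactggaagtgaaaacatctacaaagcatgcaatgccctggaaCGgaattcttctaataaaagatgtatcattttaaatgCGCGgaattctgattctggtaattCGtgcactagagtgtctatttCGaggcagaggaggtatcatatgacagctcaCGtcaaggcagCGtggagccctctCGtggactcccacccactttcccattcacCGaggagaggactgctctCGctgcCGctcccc
Bdnf window 5: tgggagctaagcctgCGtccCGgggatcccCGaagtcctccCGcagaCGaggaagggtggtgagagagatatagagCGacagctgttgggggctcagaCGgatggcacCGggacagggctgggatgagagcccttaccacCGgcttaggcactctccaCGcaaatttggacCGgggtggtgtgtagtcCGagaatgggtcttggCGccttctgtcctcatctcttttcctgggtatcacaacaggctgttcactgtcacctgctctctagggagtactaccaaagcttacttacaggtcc
Bdnf window 6: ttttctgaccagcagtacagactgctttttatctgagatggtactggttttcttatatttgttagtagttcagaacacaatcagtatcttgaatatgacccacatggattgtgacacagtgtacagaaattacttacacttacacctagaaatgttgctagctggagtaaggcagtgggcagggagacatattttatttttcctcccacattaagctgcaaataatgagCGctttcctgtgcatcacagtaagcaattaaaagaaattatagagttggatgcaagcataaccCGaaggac

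The receptor windows show CpG-rich promoters of genes that had no peak or a peak in 1 list. The Ntrk2 window (chr13:58806319-58806618, + strand) lay far from any peak. The Ngfr window (chr11:95587649-95587948, - strand) lay beside a peak of Q7SST.
Ntrk2 window 1: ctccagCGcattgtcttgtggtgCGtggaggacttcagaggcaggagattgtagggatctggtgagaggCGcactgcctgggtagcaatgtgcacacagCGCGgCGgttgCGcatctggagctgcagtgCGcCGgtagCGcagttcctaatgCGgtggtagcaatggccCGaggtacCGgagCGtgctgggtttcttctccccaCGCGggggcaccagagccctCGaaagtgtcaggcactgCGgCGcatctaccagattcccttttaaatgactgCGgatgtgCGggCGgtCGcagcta
Ngfr window 1: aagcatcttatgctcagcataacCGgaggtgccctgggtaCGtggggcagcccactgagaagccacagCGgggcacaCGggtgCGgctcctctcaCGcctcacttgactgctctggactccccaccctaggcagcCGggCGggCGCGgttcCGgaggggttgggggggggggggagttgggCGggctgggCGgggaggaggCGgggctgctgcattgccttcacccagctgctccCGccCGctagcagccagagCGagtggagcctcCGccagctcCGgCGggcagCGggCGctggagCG

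Bdnf windows 1, 3 and 5 held 11, 12 and 13 CpG, and window 6 held 2. The Ntrk2 and Ngfr windows each held 23 CpG, which placed them at percentile 79.2 of all 32851 windows in the table, whose median was 7. In Q111SST a peak touched 83% of all windows with 20 to 29 CpG, 63.4% of those with 10 to 19 and 5.23% of those with 0 to 4. The unmarked Bdnf window was thus of a CpG-poor kind that seldom carried a peak, while the Ntrk2 and Ngfr windows were of a kind that mostly did. Among the other unmarked windows, those of Ntf3 held 12 and 17 CpG, and that of a Bdnf start given only by RefSeq held 8. The left and right parts of the RE1 element (TCAGCACC and GGACAGCG) and the cyclic AMP response element (TGACGTCA) were searched on both strands, and none of these motifs contains another. None of the 13 member windows held any of them, against 1.65%, 1.26% and 1.79% of all windows.

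**Figure D1:**
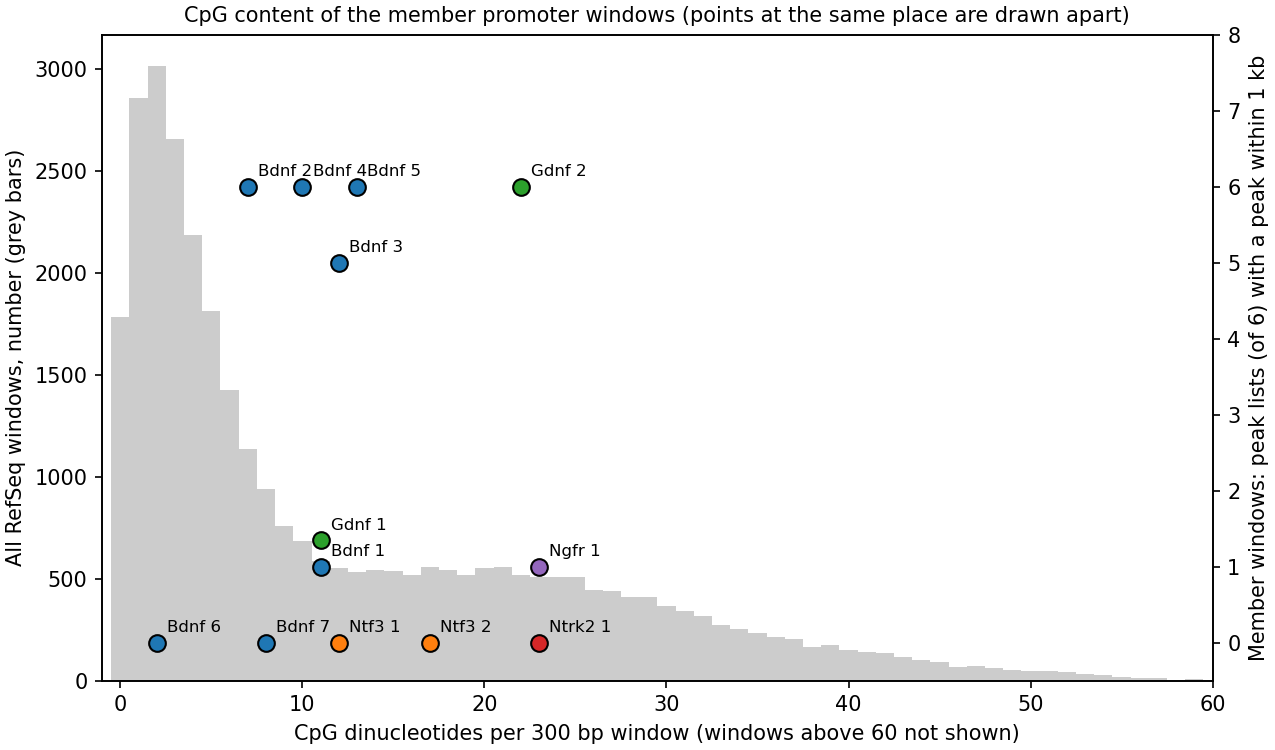
CpG dinucleotides per 300 bp window (x axis) for all RefSeq windows (grey bars, left axis) and for the 13 member windows (points, right axis, number of the 6 peak lists with a peak within 1 kb of the start). Ntrk2 and Ngfr had the most CpG of the member windows, with 23 each, and had a peak in 0 and 1 list, while Bdnf windows 2, 4 and 5 held 7 to 13 CpG and Gdnf window 2 held 22, and these 4 had a peak in all 6.

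The lists held from 30758 peaks (DKI) to 45564 peaks (loxapine). Each peak carries the authors' whole-number score, and read depth per list is unknown. Strength below is the percentile of a gene's highest peak score among all peaks of the same list, so that lists were not compared on the score itself. Without replicate lists there was no spread to set a difference against, and no difference between lists was tested. As a check of the cell type, Foxp1 of 7 striatal genes and Vim of 4 neural progenitor genes were marked in all 6 lists, while Isl1, Drd1 and Drd2 were marked in none. The progenitor gene Sox2 and the astrocyte gene Gfap were marked in the 5 mutant lists and not in Q7SST. Nes was marked in all lists but cyproheptadine, at percentile 90.7 in Q7SST and 41.9 in Q111SST, and Pax6 in all but cyproheptadine and DKI. Of the other genes of unrelated cell types, Mbp was marked under meclizine only, and Alb, Ptprc, Pecam1 and Myod1 in none.

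Of the 8 genes, Rest, Bdnf, Gdnf and Sort1 were marked in all 6 lists, Ntf3 and Ntrk2 were marked in none, and Ngfr and Ntrk3 were marked in some. The number marked was 5 in Q7SST, 5 in Q111SST, 4 under cyproheptadine, 4 under loxapine, 4 under DKI and 5 under meclizine. Over all protein-coding genes, 59.9% were marked in Q7SST, 58.3% in Q111SST, 55.3% under cyproheptadine, 58.1% under loxapine, 55.7% under DKI and 58.6% under meclizine, so that 4 or 5 of 8 was near the background. Among the 8 genes the ligands and receptors each split into marked and unmarked members.

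Against Q111SST, Ngfr was gained and Ntrk3 lost in Q7SST, where 3.59% of all genes were gained and 2.08% lost. Ntrk3 was the only member lost under cyproheptadine, loxapine and DKI, where 3.33%, 1.24% and 2.88% of all genes were lost. No member was gained with any compound, where 0.306% (cyproheptadine), 1.01% (loxapine), 0.269% (DKI) and 1.02% (meclizine) of all genes were gained. No member was lost under meclizine, where 0.798% of all genes were lost. These comparisons share the Q111SST list, so the repeated loss of Ntrk3 rests on a single Q111SST peak.

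**Figure D2:**
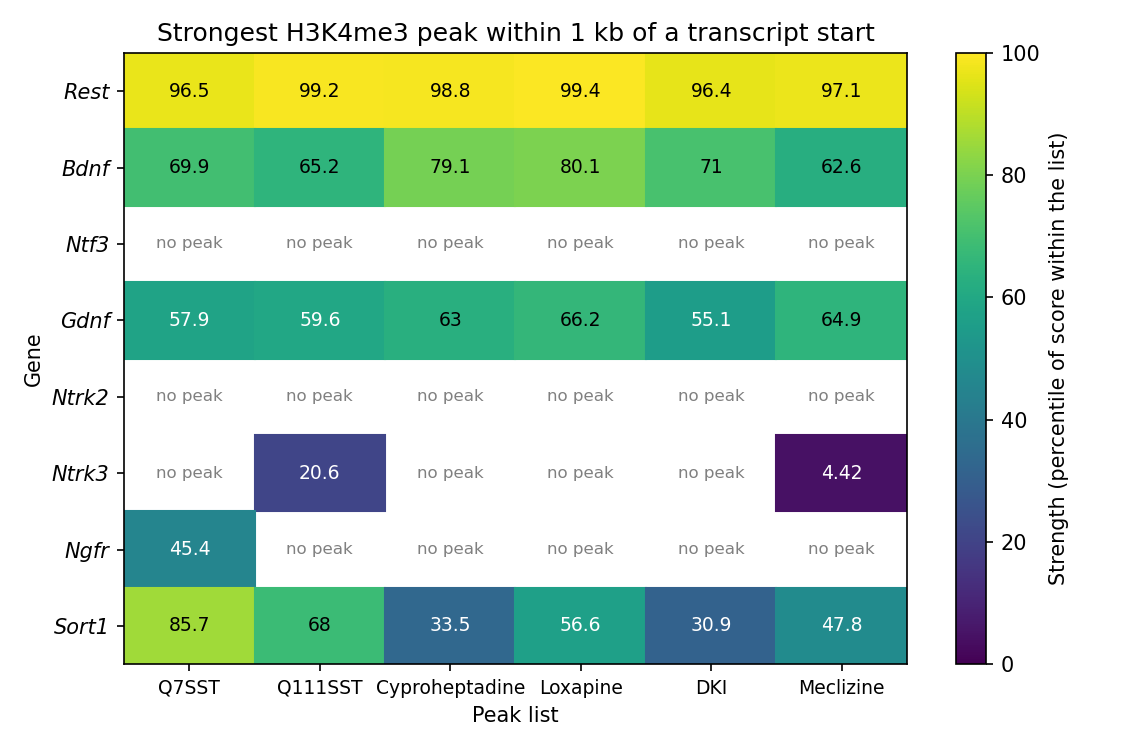
Strength of the strongest peak within 1 kb of a transcript start (colour and number, percentile of score within the list) for each of the 8 genes (rows) in each of the 6 peak lists (columns), with unmarked genes as "no peak". Rest lay between percentiles 96.4 and 99.4 in the 6 lists, whereas Sort1 ranged from percentile 30.9 under DKI to percentile 85.7 in Q7SST.

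Rest lies on chromosome 5 (77265491 to 77286432, + strand, GRCm38) with annotated starts at 77265491 and 77266196. It had the strongest peak of the 8 genes in each list. The score of that peak was 187 in Q7SST, 222 in Q111SST, 175 under cyproheptadine, 237 under loxapine, 156 under DKI and 212 under meclizine, at percentiles 96.5, 99.2, 98.8, 99.4, 96.4 and 97.1 of the respective lists. The median gene marked in all 6 lists lay between percentiles 77.2 (DKI) and 84.6 (loxapine). Rest therefore stood near the top of every list, and its percentile differed by at most 2.78 from that of Q111SST. For DKI, 64.7% of the 11713 genes marked in all lists had a change from Q111SST at or below that of Rest.

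The strong Rest peak did not cover a start. It lay in an intron, from 77266431 to 77267579 in Q111SST, and its near edge was between 235 bp (Q111SST) and 425 bp (cyproheptadine) downstream of the second start. Its width was between 1014 bp (DKI) and 1243 bp (meclizine).

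A narrower peak lay upstream of the first Rest start in 4 of the 6 lists. It ran from 77265005 to 77265276 in Q7SST with a score of 85, from 77265071 to 77265300 in Q111SST with a score of 53, from 77265045 to 77265237 under DKI with a score of 18 (percentile 13.2), and from 77265015 to 77265283 under meclizine with a score of 69. Under cyproheptadine and loxapine no such peak was listed, and the nearest peak to the first start was then the intronic peak, 1130 bp and 1017 bp away. Between the upstream and the intronic peak was a gap of 1212 bp in Q7SST, 1130 bp in Q111SST, 1293 bp under DKI and 1148 bp under meclizine, which contained both starts. Peaks on either side of an uncovered start were seen at 3.41% of all marked genes in Q7SST, 3.54% in Q111SST, 4.96% under DKI and 2.77% under meclizine, and at 5.47% under cyproheptadine and 5.33% under loxapine, where Rest was not flanked.

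Bdnf, on chromosome 2 (109674700 to 109727007, + strand), is transcribed from several promoters, each of which joins its own leader exon to a shared coding exon. Its 11 annotated transcripts had 9 starts, which fell into 8 groups when starts within 500 bp of the next were joined. The groups are numbered in the direction of transcription and began at 109674700, 109675897, 109677032, 109692436, 109693027, 109693563, 109694409 and 109709383. In each list 6 of the 8 groups had a peak within 1 kb, but they were not the same 6. Groups 2, 3, 5, 6 and 7 were marked in all 6 lists, group 1 in Q7SST only, group 4 in the 5 mutant lists only, and group 8 in none.

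The peaks formed an upstream block at groups 2 and 3 and a downstream block at groups 4 to 7. Over the upstream block, Q7SST had a single peak from 109676096 to 109679062 with a score of 73, and Q111SST had a peak from 109676095 to 109679115 with a score of 66. DKI and meclizine also had single peaks, of 2843 bp and 2999 bp, each with a score of 75. Under cyproheptadine the block was split into peaks of 831 bp and 1227 bp, with scores of 49 and 83, and under loxapine into peaks of 836 bp and 1370 bp, with scores of 84 and 101. The start of group 3 lay in the gap, which was 911 bp under cyproheptadine and 819 bp under loxapine, and it was covered by a peak in the other 4 lists. The left edges of the 6 lists lay between 109676095 and 109676104. Of 1897 Q111SST peaks of similar width (2.5 to 3.5 kb), 17.7% were touched by several peaks under cyproheptadine and 16.4% under loxapine, against 16.1% under DKI, 4.22% under meclizine and 5.64% in Q7SST.

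The downstream block differed between the wild-type list and the mutant lists. Q7SST had a single peak of 3694 bp, from 109693615 to 109697308 with a score of 85, at percentile 99.6 of peak widths in that list. It began 588 bp past group 5 and 52 bp past group 6, so that the starts of groups 4, 5 and 6 were not covered. In the mutant lists a separate peak lay over group 5, of 1020 bp in Q111SST, 864 bp under cyproheptadine, 852 bp under loxapine, 1225 bp under DKI and 1166 bp under meclizine, with scores of 53, 36, 41, 32 and 52. It also covered the start of group 4 in Q111SST, DKI and meclizine. After a gap of 814 to 1076 bp, a second peak of 1911 bp (DKI) to 2736 bp (loxapine) covered group 7 in each mutant list, with scores of 60 to 81. Group 7 was the only Bdnf group with a start covered in all 6 lists, and under loxapine the peak, which began at 109694412, covered its start at 109694469 and not that at 109694409.

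Weaker Bdnf peaks also separated the lists. Only Q7SST had a peak beside group 1, from 109674143 to 109674581 with a score of 19 (percentile 7.83). An intronic peak that began between 28569 bp (cyproheptadine) and 28890 bp (DKI) downstream of the first start was present in the 5 mutant lists, with scores of 28 in Q111SST, 20 under cyproheptadine, 35 under loxapine, 21 under DKI and 25 under meclizine, and not in Q7SST. Group 8, the CpG-poor start shown above as window 6, lay 1309 bp from a Q7SST peak with a score of 15 and at least 4599 bp from any peak of the mutant lists. All of these scores were below the pooled median of 47.

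**Figure D3:**
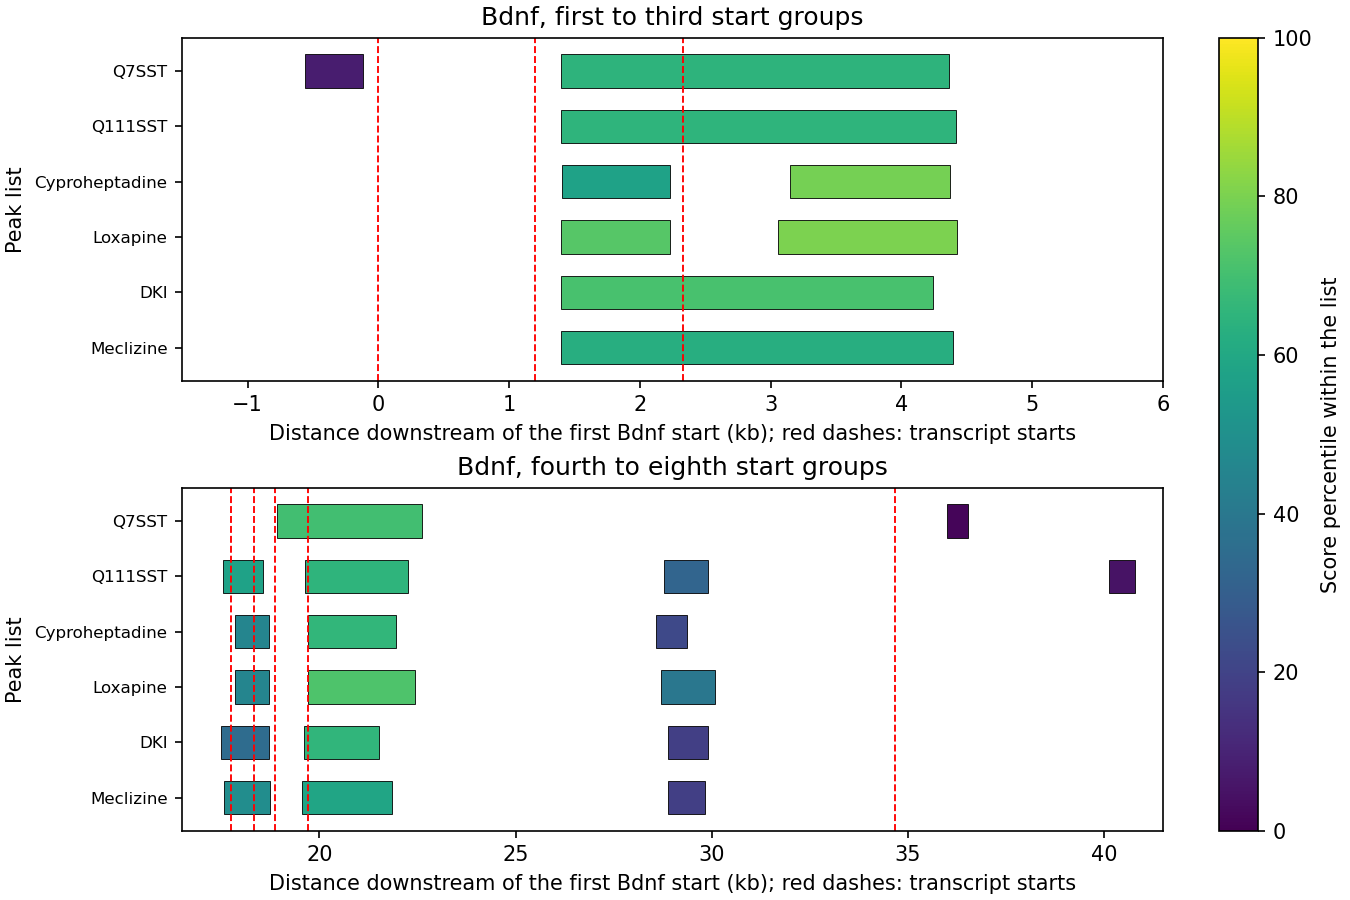
Peaks at Bdnf in the 6 lists (bars, to scale, coloured by score percentile within the list) against distance downstream of the first Bdnf start (x axis, kb), with transcript starts as red dashes. The upper panel shows a peak of about 3 kb that is split in the cyproheptadine and loxapine lists, and the lower panel shows a separate peak over group 5 that is absent from Q7SST.

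Bdnf strength was 69.9 in Q7SST, 65.2 in Q111SST, 79.1 under cyproheptadine, 80.1 under loxapine, 71 under DKI and 62.6 under meclizine, as percentiles of each list. The percentile was higher than in Q111SST by 13.9 under cyproheptadine and by 14.9 under loxapine. Of the 11713 genes marked in all lists, 1.66% and 2.16% changed as far upwards in those comparisons, where the median gene changed by -3.62 and -0.337. In both lists the strongest peak was the downstream part of the split block, whose near edge lay 814 bp (cyproheptadine) and 721 bp (loxapine) from the nearest start. Counting only peaks over a start, the strength was 65.8 under cyproheptadine and 72.2 under loxapine, against 65.2 in Q111SST. The antisense gene Gm45346 starts at 109676591 inside the upstream block, and the mark cannot be assigned to a strand.

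Gdnf, on chromosome 15 (7810846 to 7837575, + strand), had a broad peak just downstream of its single annotated start in all 6 lists. In Q111SST the peak ran from 7811096 to 7813815. The peak was 3106 bp wide in Q7SST, 2720 bp in Q111SST, 2520 bp under cyproheptadine, 2500 bp under loxapine, 2524 bp under DKI and 2668 bp under meclizine, which is at or above percentile 96 of peak widths in each list. Strength was moderate, at percentiles 57.9, 59.6, 63, 66.2, 55.1 and 64.9 in the same order. The near edge lay 242 to 329 bp past the start, which no list covered. The mark thus lay over much the same stretch of the gene in wild-type and mutant cells.

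In Q7SST alone, a further Gdnf peak lay upstream, from 7809778 to 7810205 with a score of 42. It touched a RefSeq start window of Gdnf (chr15:7809798-7810097) that held 11 CpG and that no mutant list touched. A second RefSeq window (chr15:7813477-7813776), with 22 CpG, was touched in all 6 lists.

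Ntf3, on chromosome 6 (126101412 to 126166910, - strand), had no peak within 1 kb of its 3 starts in any list. The nearest peak was 1772 bp from a start in Q7SST, with a score of 19. In the other lists it was at least 5145 bp away. Peaks lay in the intron far from the starts in Q111SST, loxapine, DKI and meclizine, with a highest score of 54 in Q111SST. Bdnf and Gdnf were thus marked in each list and Ntf3 in none.

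Ntrk2, on chromosome 13 (58806569 to 59133970, + strand), had no peak at any of its 9 starts and no peak anywhere in its 327402 bp in any list. The nearest peak to a start was 216928 bp away in Q7SST and 264530 bp away in Q111SST. Of 495 protein-coding genes at least as long, 37 (7.47%) lacked a peak in the gene body in all 6 lists. The receptor for Bdnf thus lay in a long stretch without called peaks, although its promoter window is CpG-rich.

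Ntrk3, on chromosome 7 (78175959 to 78738012, - strand), had 20 transcripts with 19 starts in 11 groups, and only group 5, counted in the direction of transcription, had a peak within 1 kb. This peak ran from 78578133 to 78578329 in Q111SST with a score of 21, and from 78578049 to 78578251 under meclizine with a score of 16. At 197 bp and 203 bp these were among the narrowest peaks of their lists, at width percentiles 1.12 and 1.55. They lay within an exon, and the antisense gene Gm9885 also starts within 1 kb. Of all genes, 27 (0.123%) were marked in Q111SST and meclizine only.

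Further peaks lay in Ntrk3 introns, outside the 1 kb windows, in the mutant lists only. A peak that began 69053 to 69295 bp downstream of the first start was listed in Q111SST (78667904 to 78668959, score 44), under cyproheptadine (score 23), loxapine (score 60), DKI (score 22) and meclizine (score 48). Another, which began 46177 to 46564 bp downstream, had scores of 21, 16, 31, 13 and 29 in the same order. The number of peaks in the gene body was 0 in Q7SST, 5 in Q111SST, 3 under cyproheptadine, 3 under loxapine, 2 under DKI and 3 under meclizine. The wild-type list thus had no peak in the 562054 bp of the gene, and each mutant list had at least 2. Of 181 protein-coding genes at least as long, 4 (2.21%) had no body peak in Q7SST and 1 or more in each mutant list.

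**Figure D4:**
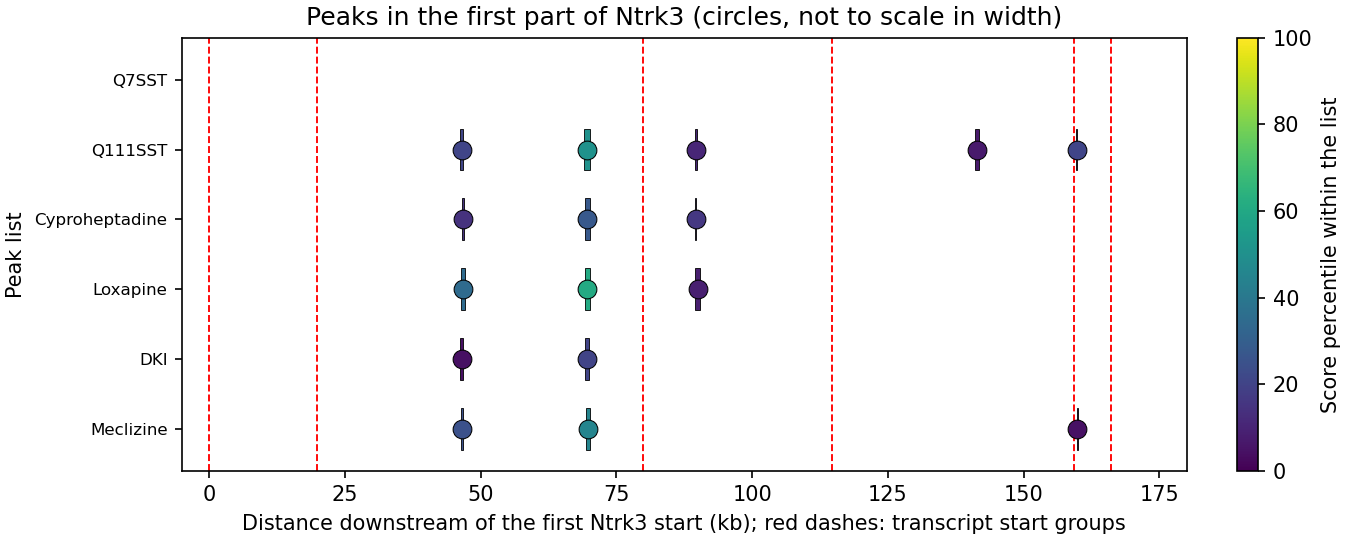
Peaks in the upstream part of Ntrk3 in the 6 lists (circles at peak centres, coloured by score percentile within the list) against distance downstream of the first start (x axis, kb), with start groups as red dashes. Q7SST has no peak, and the 5 mutant lists share 2 intronic peaks that lie away from annotated starts.

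Ngfr, on chromosome 11 (95568818 to 95587735, - strand), was marked in Q7SST only. The Q7SST peak ran from 95585529 to 95587471, in an intron downstream of its only annotated start, and was 1943 bp wide with a score of 45 (percentile 45.4). Its near edge lay 264 bp downstream of the start. In Q111SST and DKI the gene body held no peak, and the nearest peak to the start was 37216 bp and 73218 bp away. Under cyproheptadine a peak of 742 bp lay over the far part of the same stretch, from 95585467 to 95586208, with a score of 12 and 1527 bp from the start. Under loxapine and meclizine peaks of 466 bp and 496 bp lay 11372 bp and 11292 bp from the start, with scores of 23 and 21. Ngfr was thus the member marked in Q7SST alone. Of all genes, 610 (2.78%) were marked in Q7SST and in none of the 5 mutant lists.

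Sort1, on chromosome 3 (108284082 to 108361511, + strand), was marked in all 6 lists by a peak just upstream of its first starts. The score was 130 in Q7SST, 72 in Q111SST, 27 under cyproheptadine, 54 under loxapine, 29 under DKI and 51 under meclizine. The corresponding strengths were percentiles 85.7, 68, 33.5, 56.6, 30.9 and 47.8. Sort1 was the most variable of the members marked in all lists, with its highest strength in the wild-type list and lower strengths with all 4 compounds than in Q111SST.

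Against Q111SST, the strength of Sort1 was higher by 17.6 percentile points in Q7SST, and 2.31% of the 11713 genes marked in all lists had as large a rise. The difference was -34.5 under cyproheptadine, -11.4 under loxapine, -37.1 under DKI and -20.2 under meclizine. The share of genes with as large a drop was 1.14%, 5.93%, 1.66% and 0.965%, and the median gene changed by -3.62, -0.337, -6.45 and -1.56. With lists of equal size the strengths were 82.1 in Q7SST, 58 in Q111SST, 27.1 under cyproheptadine, 35.7 under loxapine, 30.9 under DKI and 34.6 under meclizine. The order of wild-type, mutant vehicle and compounds was kept, while the 4 compounds lay closer together.

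The Sort1 peak was 1387 bp wide in Q7SST, 1554 bp in Q111SST, 478 bp under cyproheptadine, 1197 bp under loxapine, 1394 bp under DKI and 1543 bp under meclizine. It reached over the start in Q111SST (108282615 to 108284168) and meclizine, and ended 62 to 144 bp short of it in the other 4 lists. Under cyproheptadine the part farthest upstream was missing, and the peak began at 108283461. The late start of the gene, at 108355467, had no peak within 1 kb in any list. Intronic peaks that began 34339 to 35272 bp downstream were listed in all 6 lists, at score percentiles 55.4, 38.1, 39.2, 52, 48.9 and 48.6 in the order used above. Q111SST was lowest at this site, whereas at the promoter it lay below Q7SST only. At a further site, which began 43428 to 44145 bp downstream, the percentiles were 53.9 in Q7SST, 33.9 in Q111SST, 12.2 under loxapine, 1.15 under DKI and 20.2 under meclizine, with no peak under cyproheptadine, so that Q111SST there also lay below Q7SST only. Other intronic sites went differently. A peak that began 12246 to 12510 bp downstream was listed in the 5 mutant lists and not in Q7SST. Its percentiles were 22.4 in Q111SST, 20.2 under cyproheptadine, 14 under loxapine, 25 under DKI and 41 under meclizine. A peak that began 9990 to 10498 bp downstream was listed only in Q7SST, cyproheptadine and loxapine, at percentiles 2.76, 3.8 and 22.7. The antisense gene Gm12523 starts 752 bp from the nearest Sort1 start and had a peak within 1 kb in all 6 lists.

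**Figure D5:**
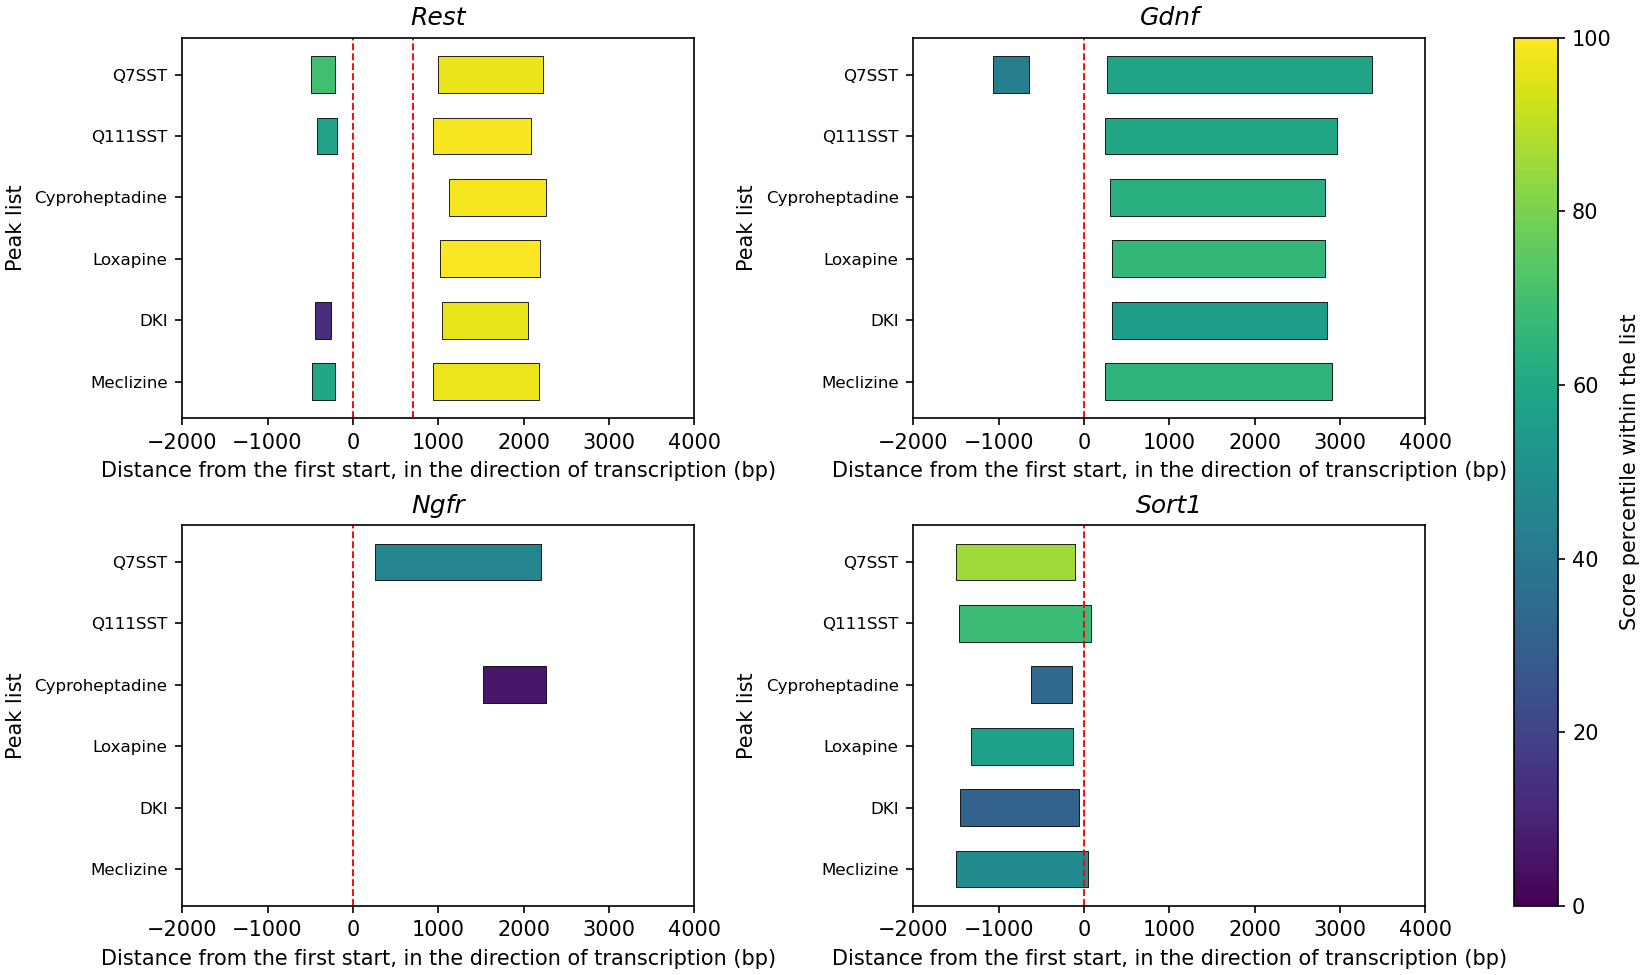
Peaks around the first start of Rest, Gdnf, Ngfr and Sort1 in the 6 lists (bars, to scale, coloured by score percentile within the list) against distance from that start in the direction of transcription (x axis, bp), with starts as red dashes. The upstream Rest peak is missing under cyproheptadine and loxapine, the upstream Gdnf peak is seen in Q7SST, Ngfr has a peak within 1 kb in Q7SST only, and the Sort1 peak is narrowest under cyproheptadine.

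Some marked members had a peak beside a start rather than over it. Of 27 pairs of a marked member and a list, 19 had no peak over any annotated start. These pairs count the same genes in up to 6 lists and are not independent. Within a list, 1 or 2 of the 4 or 5 marked members had a peak over a start. Over all marked genes of a list, the share without such a peak was between 10.6% (meclizine) and 18% (cyproheptadine). With 4 or 5 genes per list, a difference from that share was not tested. Bdnf was covered at a start in each list, Sort1 in Q111SST and meclizine, and the other marked members in none. These counts use the GENCODE starts and depend on the annotation: the RefSeq start of Gdnf at 7813727 lay inside its peak in Q7SST, Q111SST and meclizine, and that at 7810048 inside the upstream peak of Q7SST. The threshold of 1 kb left near cases on both sides. Just inside were the Bdnf peak 814 bp from a start under cyproheptadine and the Gdnf peak at 641 bp in Q7SST. Just outside in Q7SST were the peaks at 1179 bp (Bdnf group 4), 1309 bp (Bdnf group 8) and 1772 bp (Ntf3). In the mutant lists these were the peaks at 1395 to 1404 bp (Bdnf group 1, all 5 mutant lists) and 1527 bp (Ngfr, cyproheptadine). The first Rest start, 1017 bp from a peak under loxapine, was also just outside, while the second start kept Rest marked.

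Other genes of these pathways were taken as lists. Over all protein-coding genes, 53.4% were marked in all 6 lists. All 16 cofactors and regulators of Rest were marked in all 6, with a median strength in Q111SST of 78.6, against 84.3 for all genes marked in all lists. They included Kdm1a, a histone demethylase, at percentile 94.6, Hmg20b at percentile 93.7 and the deacetylase Hdac1 at percentile 90.7. Of 12 adaptors of neurotrophin receptors, 10 were marked in all lists, beside the same 53.4% of all genes, including Sh2b1, Kidins220 and Sos1. Bex3, which binds p75NTR, was not marked under loxapine or DKI, and Shc2 was marked in none.

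Among 15 neuronal genes known as targets of Rest, 10 were marked in Q7SST, 7 in Q111SST, 3 under cyproheptadine, 7 under loxapine, 3 under DKI and 8 under meclizine. The shares of all genes marked in these lists were 59.9%, 58.3%, 55.3%, 58.1%, 55.7% and 58.6%. The sodium channel gene Scn2a, Celsr3 and Tubb3 were marked in all 6 lists. Vgf, L1cam and Syn1 were marked in Q7SST, Q111SST, loxapine and meclizine and not under cyproheptadine or DKI, and Stmn2 in Q7SST, Q111SST and meclizine. Grin1 was marked in Q7SST, loxapine and meclizine, and Syp and Gria2 in Q7SST only. Cyproheptadine and DKI were the shortest lists, and their part in these counts was not tested.

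Among other ligands, Ntf5 was marked in Q7SST, Q111SST, loxapine and meclizine, Artn in Q7SST, loxapine and meclizine, and Nrtn and Pspn in none. Among other receptors, Ret and Gfra1, which together form a receptor for Gdnf, and Sorcs2 were marked in all lists. Sorl1 was marked in Q7SST only, and Sorcs1 in Q111SST, cyproheptadine, loxapine and meclizine. Gdnf and both parts of its receptor were thus marked throughout, whereas Bdnf was marked without Ntrk2. Of 5 proteases that process neurotrophin precursors, 3 were marked in all lists, near the 53.4% of all genes. These were Furin, Pcsk7 and Plat, while Pcsk6 was marked in all but cyproheptadine and DKI, and Pcsk5 in none.

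For the members marked in all lists, the genes with the closest strengths over the 6 lists were found by Euclidean distance. For Rest they were Abhd10, Fam8a1 and Kyat1, at distances of 1.18 to 1.42 percentile points. For Bdnf they were Kcnip3, Nr2f1 and Rhog (8.4 to 8.94), and for Gdnf Amotl2, Wls and Tpra1 (6.04 to 7.08). For Sort1 the closest were Gm14418, Thbs2 and Rspo2, at distances of 13.7 to 15.5.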

How the data were processed

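H3K4me3 ChIP-Seq was performed on crosslinked chromatin digested with micrococcal nuclease, with single-end sequencing. The authors deposited 1 peak list per condition, with a whole-number score per peak whose scale is not given in the sources used here. The submitters' processing notes name Trimmomatic 0.36, Bowtie2, SAMtools 1.3, MACS2 and build mm10. The peak caller's thresholds, any input control and any pooling of replicates are not given in the sources used here. Read depth per list is unknown, and its part in the number of peaks was not tested. The study's design states triplicate treatment, but there was 1 list per condition.

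All peaks lay within the GRCm38 chromosome lengths (0 exceptions on 21 chromosomes). Coordinates are on GRCm38 and counted from 1. Transcript starts were those of GENCODE vM21, for 21924 protein-coding genes. Strength is the percentile (mid-rank) of the highest score within 1 kb among all peaks of a list. Sequences came from RefSeq windows on GRCm38.p6. Groups were taken from the labels. With 1 list per condition no test was made. Python 3.11.15, numpy 2.4.6 and matplotlib 3.10.9 were used, and the functions were tested on simulated data.

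The members and lists were chosen with earlier results of these data known. All members are named. From each pathway list up to 4 genes are named, first those whose marked state differed between lists and then the strongest in Q111SST, and further genes were named after their values were seen. Some genes of these lists are not reported here. For each member marked in all lists, the 3 genes with the closest strengths are named. Alternatives were a peak over the start, a start within 5 kb, peaks scoring at least 47 (the median of all lists pooled), lists of equal size with the strongest 30758 peaks, starts of protein-coding transcripts only, starts within 100 bp grouped, and base pairs inside the windows. Counts of split peaks, flanked starts and gene bodies without peaks were added after the data were seen.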

Additional observations from a re-analysis of the deposited data

How the results depend on the processing

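No paired analysis was possible because there was 1 peak list per condition. With a peak required over a start, the members marked went to 1 in Q7SST, 2 in Q111SST, 1 under cyproheptadine, 1 under loxapine, 1 under DKI and 2 under meclizine, Ngfr was no longer gained in Q7SST (0 gained), the 1 member lost in Q7SST and under cyproheptadine, loxapine and DKI was Sort1 in place of Ntrk3, and 2 Bdnf start groups remained marked in Q7SST, 2 under cyproheptadine and 2 under loxapine. With a start within 5 kb, 1 member was gained under cyproheptadine (Ngfr) and 2 in Q7SST. All 8 Bdnf start groups were then marked in each list but cyproheptadine (7), where group 8 was 5326 bp from its nearest peak. Groups 1 and 4 thus no longer set Q7SST apart from any mutant list. With lists of equal size, the narrow Ntrk3 peak of Q111SST was left out, and 0 members were lost in Q7SST, under cyproheptadine, under loxapine and under DKI. At the pooled median score or above, 0 members were gained and 0 lost in Q7SST, and 0 were lost under loxapine, while under cyproheptadine and DKI the 1 member lost was again Sort1. In Q7SST 5 of the 6 marked Bdnf start groups stayed marked with lists of equal size and at the pooled median score or above, without group 1, and those under cyproheptadine, loxapine and DKI went to 4 at the latter, without groups 4 and 5. With starts of protein-coding transcripts only, all 22 counts were as reported. Percentiles of strength moved with lists of equal size in 20 of 25 cases and at the pooled median score or above in 22 of 22, by construction, since weak peaks were removed. In the latter Gdnf under DKI went from 55.1 to 9.56 and Sort1 under meclizine from 47.8 to 6.43. Marked base pairs counted inside the windows only moved in 15 of 27 cases. The gain of Ngfr and the loss of Ntrk3 rest on peaks below the pooled median score, and unknown depth limits what the absence of such a peak says. Other causes of these changes were not tested.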
